A study of Homo sapiens with 60 samples.

Results

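The 31 genes described here encode the enzymes that make cholesterol and fatty acids in the cytosol and endoplasmic reticulum, their SREBP regulators and 1 sterol carrier. They were chosen by name, from a list of sterol and fatty acid synthesis genes, with no measured value in the rule. Earlier results of these data were known when the list was chosen. All 31 were among the 19712 genes of both deposited tables, and all 31 passed the filter on low counts in each of the 24 comparisons, with a lowest count of 35.1 in any library. RNA was sequenced from 4 human non-small cell lung cancer lines with mutant EGFR (PC9, HCC827, H1975 and HCC2935), each in 5 arms with 3 libraries per arm, 60 libraries in all. Osimertinib, an inhibitor of mutant EGFR, was used at 500 nM throughout. In the DMSO arm, parental cells spent 21 days without drug and were then given the vehicle for 24 h, and the acute arm differed from it in that the last 24 h were with osimertinib. The DTP arm held the drug-tolerant persister cells that were left after 21 days of osimertinib. In the short washout arm the persisters were then kept without drug for 24 h. The long washout is described as lasting until growth resumed, at 7 days in PC9, 4 in HCC827, 3 in H1975 and 10 in HCC2935. Every line is 1 established line and the labels call the 3 libraries of a group biological triplicates, so that p-values measure the spread between cultures of that line.

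Cells make cholesterol from acetyl-CoA through mevalonate, isoprenoid units and squalene, and make fatty acids from the same acetyl-CoA through malonyl-CoA. SREBP-2, encoded by SREBF2, mainly drives the sterol genes, and SREBP-1, encoded by SREBF1, mainly the fatty acid genes. Both start as membrane proteins, and INSIG1 and INSIG2 hold them in the endoplasmic reticulum when sterols are plentiful, while INSIG1 is itself an SREBP target, so that its mRNA is often read as a gauge of SREBP activity. Growing cells draw on both pathways for new membranes, and receptor kinase signalling through AKT and mTOR is known to raise SREBP activity.

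Levels are given as CPM, the counts scaled to library size with TMM factors over the 60 libraries, in the order of replicates 1, 2 and 3. TPM, which also divides by transcript length, is used where genes are compared with each other. A gene is said to have risen or fallen, or to be called, where edgeR's quasi-likelihood F-test gave a Benjamini-Hochberg adjusted p under 0.05 over all genes tested. Changes are log2 fold changes, given ± their standard error (SE), and levels in TPM are given ± the SD of 3 libraries. Libraries held 34.7 to 47.1 M counts in PC9, 38.7 to 49.1 in H1975, 17.7 to 25.1 in HCC827 and 18.6 to 25.6 in HCC2935. Each of the 60 libraries was most like another library of its own line, and 47 of 60 were most like another library of their own group. The epithelial markers EPCAM, KRT8, KRT18 and CDH1 summed to between 1349 and 14589 CPM, while 4 leukocyte markers summed to at most 6.67 CPM. Sums of 4 fibroblast markers ran from 13.2 to 440 CPM, and those of 3 endothelial markers from 0.886 to 48.0. The fibroblast sum was 53.1 to 124 CPM in H1975 DMSO and 206 to 440 in H1975 acute. In HCC827 it was 13.2 to 25.1 in DMSO and 63.8 to 132 in DTPs. The cause of those differences was not tested. Genes of MAPK output, which EGFR drives, check the drug label, in a list chosen with earlier results of these data known. Of these, 9 of 10 fell under acute drug in PC9, 7 in HCC827, 7 in H1975 and 10 in HCC2935. The shares of all genes that fell were 34.1%, 22.1%, 23.7% and 25.1%.

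Promoters of genes that SREBPs control often pair a sterol regulatory element with a CCAAT box, which binds NF-Y. RefSeq promoter windows of GRCh38.p14, each 250 bases before to 50 after a start, were given for 27 of the 31 genes. CCAAT, read on either strand, was present in a window of 21 of the 27 genes, or 77.8%, and in 39.7% of all 27305 genes with a window. At least 2 copies were present in 14 of the 27, or 51.9%, against 12.9% of all genes. The sterol regulatory element, searched on either strand as TCACNCCAC, was found in 1 of the 27, SREBF2, and in 1.39% of all genes. The letters of these windows are a description, and none of the matches was tested as a binding site. The stretches below were chosen to show the repeated boxes, and LSS, a member with 1 box, is given beside them; each lies in the window before the start, outside any exon of GENCODE 29, runs 5′ to 3′ on the strand of the gene, and has CCAAT or its reverse complement ATTGG in capitals.
MSMO1 (chr4:165327473-165327622, + strand): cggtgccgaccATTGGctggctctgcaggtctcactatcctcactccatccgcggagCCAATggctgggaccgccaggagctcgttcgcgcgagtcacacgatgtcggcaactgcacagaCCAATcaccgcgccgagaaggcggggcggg
NSDHL (chrX:152830817-152830966, + strand): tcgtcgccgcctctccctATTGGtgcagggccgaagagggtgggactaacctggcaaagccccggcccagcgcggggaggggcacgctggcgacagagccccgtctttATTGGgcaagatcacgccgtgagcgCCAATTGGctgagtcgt
SCD (chr10:100346983-100347123, + strand): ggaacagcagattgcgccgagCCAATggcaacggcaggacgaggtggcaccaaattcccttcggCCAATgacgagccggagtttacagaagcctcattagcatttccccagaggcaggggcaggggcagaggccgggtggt
STARD4 (chr5:111512591-111512740, - strand): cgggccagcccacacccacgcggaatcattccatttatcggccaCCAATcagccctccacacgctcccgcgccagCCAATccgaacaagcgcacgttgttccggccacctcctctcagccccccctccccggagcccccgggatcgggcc
LSS (chr21:46228825-46228974, - strand): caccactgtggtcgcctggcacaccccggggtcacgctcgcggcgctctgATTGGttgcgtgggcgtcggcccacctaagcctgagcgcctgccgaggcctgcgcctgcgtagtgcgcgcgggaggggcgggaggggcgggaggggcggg
The stretch of NSDHL, a sterol dehydrogenase, held 4 boxes, of which 1 pair shares bases in opposite directions, and that of MSMO1, which removes methyl groups from sterols, held 3. The stretches of SCD, which puts the first double bond into saturated fatty acids, and of STARD4, which carries sterols between membranes, held 2 each.

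In DMSO all 31 genes differed in level between the 4 lines (F-test over the 12 DMSO libraries), beside 91.2% of all genes tested. By TPM, HCC827 was the highest line for 14 of the 31 genes and HCC2935 for 13, while PC9 and H1975 were each the lowest for 12. SCD stood at 406 ± 89.9 TPM (SD, n = 3) in HCC827, where it was the most abundant of the 31, against 151 ± 79.5 in H1975, 98.2 ± 62.2 in PC9 and 92.5 ± 16.7 in HCC2935. The SDs of the last 3 lines overlap, so that their order is not resolved. FDPS, which makes farnesyl diphosphate, was among the 3 most abundant members in every line, at 189 ± 44.9 TPM in PC9 and 317 ± 64.3 in HCC827. FADS2, the delta-6 desaturase of polyunsaturated fatty acids, stood out in HCC2935 at 180.2 ± 6.64 TPM, with 26.7 ± 4.08 in PC9 and 24.7 ± 6.69 in H1975. STARD4 was the lowest of the 31 in PC9, at 1.61 ± 0.986 TPM, and reached 34.3 ± 3.84 in HCC2935. TM7SF2, a sterol reductase of the endoplasmic reticulum and nuclear envelope, was the lowest of the 31 in HCC827 and H1975, at 10.1 ± 4.75 and 2.16 ± 0.449 TPM.

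The 31 genes also differed between libraries of the same group, and did so together. In PC9 DMSO their median SD over the 3 libraries was 0.488 on the log2(CPM + 1) scale, where the median of all genes was 0.106. The same pair of values was 0.402 and 0.110 in PC9 acute, and 0.385 and 0.172 in PC9 long washout. In PC9 DTP and PC9 short washout the values were close to those of all genes, with 0.093 against 0.102 and 0.103 against 0.099. Replicate 1 of PC9 DMSO lay 0.523 below the mean of its group, averaged over the 31 genes, with 29 of them below it, and replicate 2 lay 0.406 above with 31 of 31 above. SCD read 147, 742 and 549 CPM in those 3 libraries, and INSIG1 29.1, 90.6 and 72.1. In PC9 acute, replicate 2 was the high library with 30 of 31 genes above the group mean, and the proliferation genes lay 0.409 below their mean in it. In PC9 long washout replicate 2 was high with 28 genes above, and the proliferation genes lay 0.283 above. In PC9 DMSO the 12 proliferation genes deviated by at most 0.054 on average and the 4 epithelial markers by at most 0.052, and the 3 libraries held 36.9, 47.1 and 38.9 M counts. In H1975, DMSO replicate 2 lay 0.312 below and acute replicate 1 lay 0.178 below their groups over the 31 genes, and the epithelial markers lay 0.435 and 0.476 below in the same 2 libraries. The cause of these differences was not tested.

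**Figure D1:**
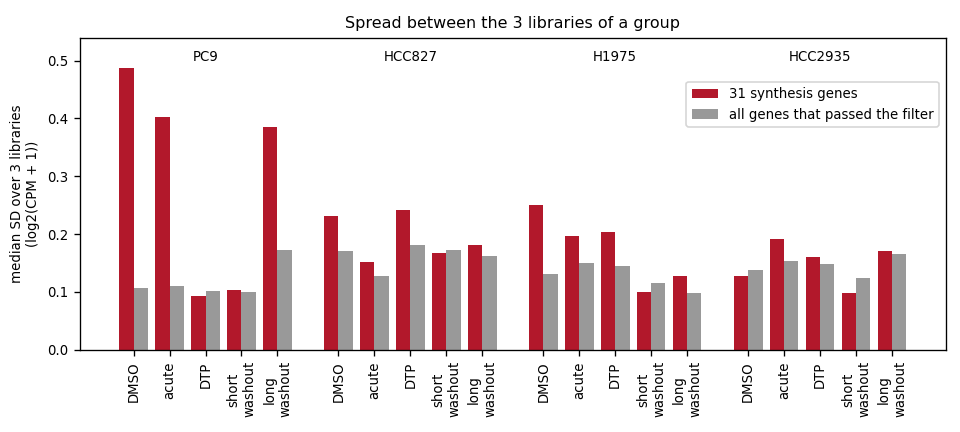
Median SD over the 3 libraries of each group, on the log2(CPM + 1) scale, for the 31 synthesis genes (red bars) and for all genes that passed the low-count filter (grey bars), by line and arm. The red bars of PC9 DMSO, acute and long washout, at 0.488, 0.402 and 0.385, stand above all other bars.

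**Figure D2:**
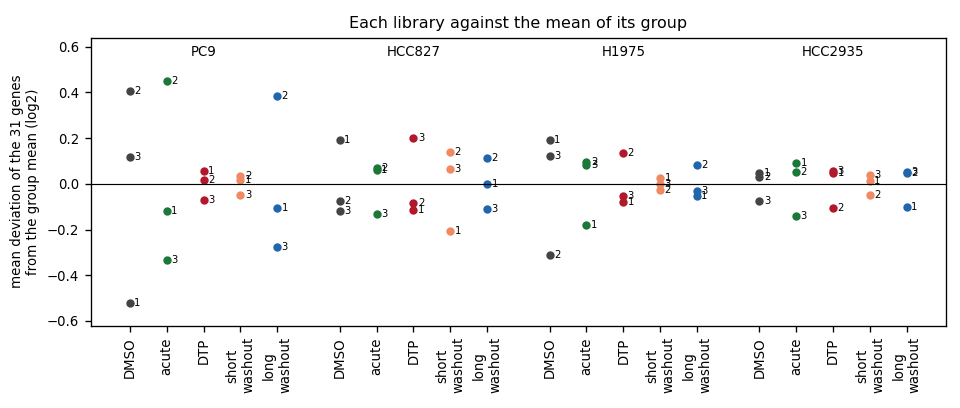
Mean deviation of the 31 synthesis genes from the mean of their group, in log2 units, as 1 point per library labelled with its replicate number, by line and arm (colours separate the arms). PC9 DMSO runs from -0.523 in replicate 1 to 0.406 in replicate 2, while the 3 PC9 short washout libraries lie within 0.05 of their mean.

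Over all 60 libraries, deviations from the group means correlated between pairs of the 31 genes with a median Pearson r of 0.544, and 93.5% of the pairs were positive. Between the 31 and all 16552 other genes the median r was -0.003. The 12 proliferation genes correlated with each other at a median r of 0.801, with 100% of the pairs positive, and with the 31 genes at 0.107, with 71.5% positive. The members most like the rest of the list were INSIG1, HMGCS1 (the cytosolic HMG-CoA synthase), DHCR7 (the last reductase on the way to cholesterol) and SCD, with median r of 0.728, 0.724, 0.712 and 0.712 to the other members. At the other end were ELOVL6, which elongates palmitate, at 0.027, PMVK, the phosphomevalonate kinase, at 0.059, INSIG2 at 0.143 and TM7SF2 at 0.247. The SD of the mean of the 31 genes was 0.475, 0.405 and 0.342 in PC9 DMSO, acute and long washout. In the other groups it was at most 0.273, so those PC9 libraries weigh most in the correlations between the 31. The correlations were not computed without them. The points share library and depth, and the values are given as a description.

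Acute osimertinib lowered most of the genes in HCC827 and HCC2935 and few in PC9 and H1975. In HCC827, 23 of the 31 fell and 1 rose, beside 22.1% and 20.2% of all genes tested. In HCC2935, 21 fell and 4 rose, beside 25.1% and 22.0%. In H1975, 6 fell and 4 rose, beside 23.7% and 21.2%, and in PC9 5 fell and 2 rose, beside 34.1% and 34.4%. The median change of the 31 was -0.58, -0.60, -0.16 and -0.15 in the same order, with medians of all genes between 0.01 and 0.03. The PC9 and H1975 shares were under those of all genes, and the counts moved when libraries were left out. Without PC9 DMSO replicate 1, 14 genes were called in PC9, 12 of them lower, and without PC9 acute replicate 2, 13 were called, 11 of them lower. Each of those settings called 63.7% of all genes. In H1975, 6 were called without DMSO replicate 3, beside 32.4% of all genes. There 16 were called without DMSO replicate 2 and acute replicate 1 together, beside 45.9% of all genes, an exclusion chosen after the data were seen. All 12 proliferation genes fell in each of the 4 lines under acute drug, with medians from -2.38 in HCC827 to -1.69 in PC9. The epithelial markers summed to 13388 to 14589 CPM in PC9 acute against 7694 to 8107 in DMSO, and to 3604 to 4506 against 7715 to 8176 in HCC2935. Their part in the falls was not tested.

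The genes that fell under acute drug in all 4 lines were ACLY, EBP, FASN and ELOVL6. ACLY, which makes cytosolic acetyl-CoA from citrate, read 280.4, 333 and 328 CPM in PC9 DMSO and 149, 188 and 176 in PC9 acute. Those 2 groups did not overlap, as for 73.7% of all genes, and the change was -0.88 ± 0.10. FASN, the fatty acid synthase, changed by -0.99 ± 0.15 in PC9, -0.70 ± 0.12 in HCC827, -0.61 ± 0.20 in H1975 and -0.98 ± 0.12 in HCC2935. EBP, the sterol isomerase, read 74.8, 62.8 and 70.7 CPM in H1975 DMSO and 37.1, 45.1 and 43.2 in H1975 acute, a change of -0.78 ± 0.11. ELOVL6 was the lowest call in HCC827, H1975 and HCC2935, at -1.77 ± 0.14, -1.24 ± 0.21 and -1.74 ± 0.28. By edgeR, the call of EBP in PC9 was lost when any of 4 of the 6 libraries was left out (adjusted p up to 0.0914) and that of FASN in H1975 when any of 4 of the 6 libraries was left out (adjusted p up to 0.118).

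Of the 7 genes from acetyl-CoA to farnesyl diphosphate, those called were lower. In HCC827 and HCC2935, 5 of the 7 fell, led by ACAT2, the cytosolic thiolase, at -1.38 ± 0.17 and -1.69 ± 0.10. HMGCS1 read 294, 247 and 170.2 CPM in HCC827 DMSO and 135, 130.0 and 131 in HCC827 acute, with the groups apart as for 55.4% of all genes. In PC9 and H1975 none of the 7 was called at this threshold, and the SE of HMGCS1 in PC9, 0.32 beside a value of 0.03, was larger than its SE in HCC827, 0.17. IDI1, the isomerase that sets up isoprenoid condensation, changed by -0.87 ± 0.12 and -0.93 ± 0.12 in the lines where it was called. The test between lines called 11 of the 31 genes for the acute change, a share no higher than the 40.5% of all genes tested, with HMGCS1, ACAT2 and FDPS among them (edgeR adjusted p = 0.0472, 0.000655 and 0.0164). It did not call IDI1, MVK, MVD or PMVK (edgeR adjusted p = 0.379, 0.531, 0.289 and 0.867). That count was 5 to 7 when the libraries of any 1 replicate number were left out.

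TM7SF2 went the other way and rose in all 4 lines. In PC9 it read 6.13, 11.9 and 9.47 CPM in DMSO and 69.0, 72.5 and 52.6 in acute, 6.99-fold higher on the fitted scale (log2 2.80 ± 0.23). All acute libraries were above all DMSO libraries in each line, and the rise was 1.88 ± 0.25 in H1975, 1.46 ± 0.33 in HCC827 and 0.47 ± 0.11 in HCC2935. LSS, the cyclase that turns squalene epoxide into lanosterol, rose in H1975 alone among the calls, from 63.8, 77.7 and 62.3 CPM to 232, 184 and 164. Its change there was 1.47 ± 0.16, beside -0.33 ± 0.12 in HCC827, where it fell, and the changes differed between lines (edgeR adjusted p = 0.000623). INSIG2 rose in PC9 (0.98 ± 0.13) and fell in HCC827 (-0.73 ± 0.10). SREBF2 rose in H1975 (0.64 ± 0.18), and SREBF1 rose in HCC2935 (0.58 ± 0.12) and fell in HCC827 (-0.51 ± 0.18). By edgeR, the HCC827 calls of LSS and SREBF1 were lost when any of 5 of the 6 libraries was left out (adjusted p up to 0.167) and when any of 5 of the 6 libraries was left out (adjusted p up to 0.14), and that of SREBF2 in H1975 when any of 3 of the 6 libraries was left out (adjusted p up to 0.0724).

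**Figure D3:**
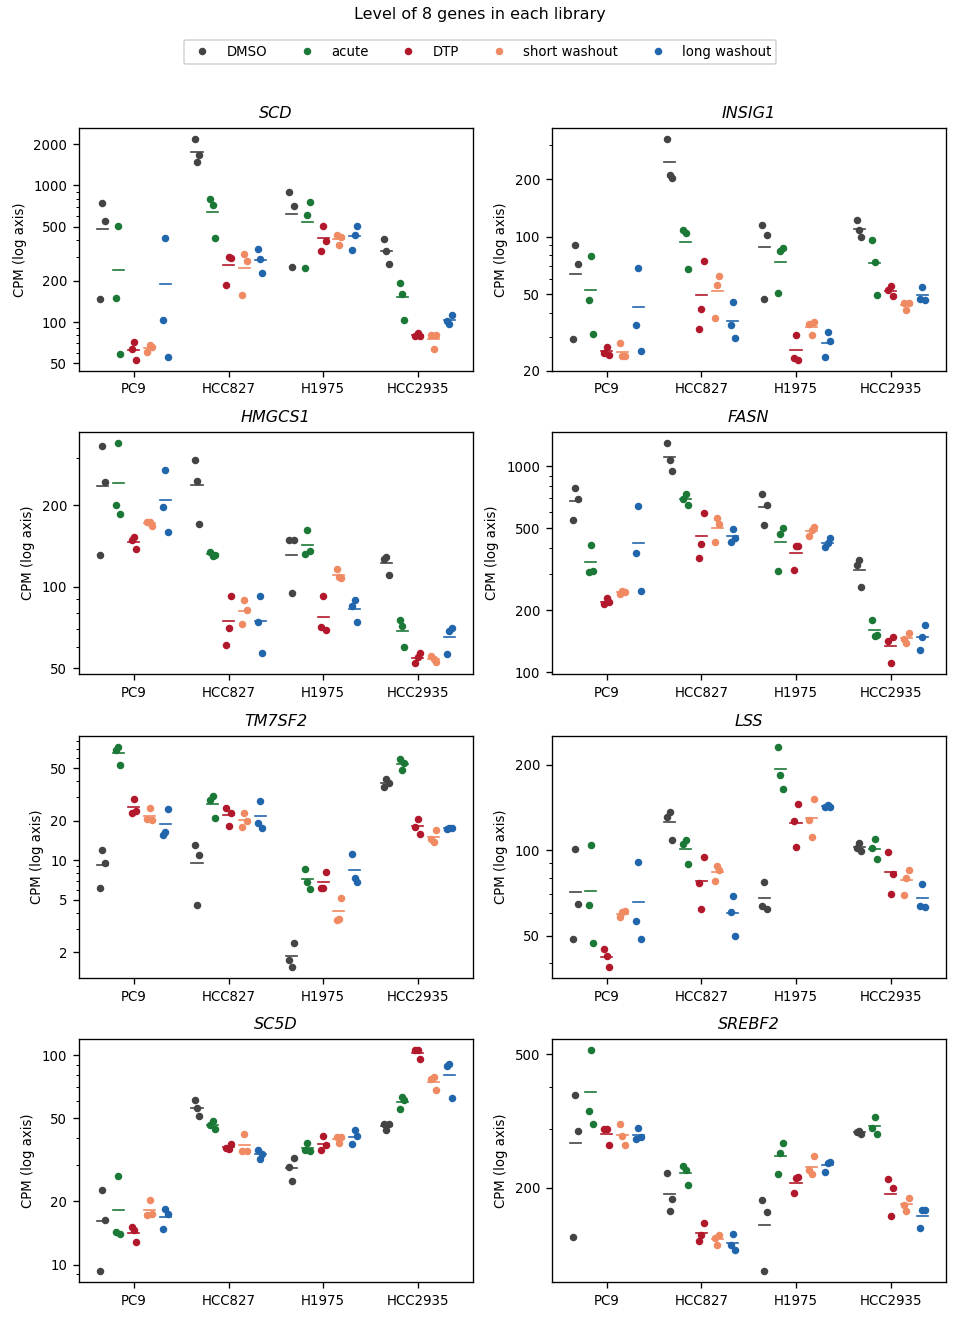
CPM on a log axis of 8 of the genes in each of the 60 libraries (points, replicates 1 to 3 from left to right) with the group mean (horizontal line), by line and arm. SCD and INSIG1 are lower in DTP, short washout and long washout than in DMSO in HCC827 and HCC2935, while TM7SF2 is higher in acute than in DMSO in all 4 lines and below DMSO in HCC2935 DTP.

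After 21 days of drug, more than 15 of the 31 genes were lower than in DMSO in each of the 4 lines. In DTPs against DMSO, 23 genes fell and 2 rose in PC9, beside 35.9% and 35.4% of all genes. In HCC827, 24 fell and 1 rose, beside 17.2% and 19.4%. In H1975, 16 fell and 4 rose, beside 23.4% and 22.4%. In HCC2935, 24 fell and 1 rose, beside 27.2% and 25.3%. The median change of the 31 was -0.81 in PC9, -1.09 in HCC827, -0.43 in H1975 and -0.89 in HCC2935, beside 0.018, 0.016, 0.011 and -0.001 over all genes. The 12 genes that fell in all 4 lines were INSIG1, ACAT2, HMGCS1, MVK, IDI1, FDPS, FDFT1, SQLE, CYP51A1, NSDHL, EBP and FASN, while 8 fell in 3 lines, 4 in 2 and 7 in 1. For INSIG1, ACAT2, MVK, NSDHL, EBP and FASN none of the 4 calls was lost with any 1 library left out. In H1975, 13 genes were called without DTP replicate 1, 10 of them lower, beside 34.4% of all genes called.

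In bulk RNA, fewer cells of a type and less RNA per cell cannot be told apart, and the persisters are the survivors of 21 days. Other genes moved with these falls. All 12 proliferation genes fell in DTPs of all 4 lines, with medians of -1.52 in PC9, -1.43 in HCC827, -1.69 in H1975 and -1.89 in HCC2935. The 4 epithelial markers summed to 5995 to 7329 CPM in HCC827 DMSO and 2056 to 2826 in HCC827 DTPs, and to 2033 to 2596 in H1975 DMSO and 1349 to 1935 in H1975 DTPs. In PC9 that sum was 7694 to 8107 in DMSO and 7124 to 7389 in DTPs, and in HCC2935 it was 7715 to 8176 and 5641 to 6257. In H1975 the adhesion protein CDH1 fell from 342, 124 and 307 CPM to 5.26, 7.93 and 8.88. No epithelial marker was under 1 CPM throughout any group, and the part of either list in the falls of the 31 genes was not tested.

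Among the regulators, INSIG1 fell in every line. It read 323, 210.4 and 202 CPM in HCC827 DMSO and 33.2, 42.0 and 74.3 in DTPs, a change of -2.27 ± 0.31. In H1975 it read 115, 47.1 and 102 and 23.2, 30.7 and 22.8, a change of -1.80 ± 0.30. Every DTP library was below every DMSO library there, where groups were apart for 57.1% of all genes. The changes in PC9 and HCC2935 were -1.35 ± 0.32 and -1.08 ± 0.10. SREBF1 fell in 3 lines by close to the same amount, -0.97 ± 0.13 in PC9, -1.04 ± 0.19 in HCC827 and -1.02 ± 0.11 in HCC2935, and its value in H1975 was -0.09, which was not called (edgeR adjusted p = 0.829). SREBF2 fell in HCC2935 alone (-0.62 ± 0.10), with 0.09 in PC9, -0.35 in HCC827 and 0.40 in H1975, none of them called.

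On the mevalonate branch, 6 of the 7 genes fell in each line. HMGCS1 changed by -0.69 ± 0.26 in PC9, -1.64 ± 0.22 in HCC827, -0.77 ± 0.20 in H1975 and -1.17 ± 0.09 in HCC2935. In HCC2935 it read 126, 129 and 111 CPM in DMSO and 52.0, 54.9 and 56.7 in DTPs, groups apart as for 61.3% of all genes. ACAT2 was the lowest call of all 31 in HCC2935, from 86.1, 88.4 and 91.0 to 20.4, 16.1 and 26.4 CPM, or -2.09 ± 0.17. IDI1 changed by -0.73 in PC9, -1.09 in HCC827, -0.84 in H1975 and -1.19 in HCC2935. The gene without a call was MVD in PC9 (-0.47) and PMVK in the other 3 lines, at 0.23 in HCC827, -0.27 in H1975 and -0.10 in HCC2935. FDPS read 155, 146 and 151 CPM in H1975 DMSO and 117, 133 and 114 in DTPs, its smallest fall (-0.32 ± 0.10). By edgeR, the PC9 calls of HMGCS1 and IDI1 were lost when any of 5 of the 6 libraries was left out (adjusted p up to 0.151) and when any of 5 of the 6 libraries was left out (adjusted p up to 0.14), and in H1975 that of HMGCS1 without DTP replicate 1 (adjusted p = 0.0548) and that of FDPS when any of 4 of the 6 libraries was left out (adjusted p up to 0.103).

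From squalene to cholesterol, 8 of 11 genes fell in PC9, 10 in HCC827, 6 in H1975 and 8 in HCC2935. FDFT1, the squalene synthase, read 361, 243 and 276 CPM in HCC827 DMSO and 89.6, 86.9 and 96.5 in DTPs (-1.66 ± 0.16). SQLE, the squalene epoxidase and a rate-limiting enzyme of the branch, changed by -1.14 ± 0.26 in PC9, -0.99 ± 0.18 in HCC827 and -0.95 ± 0.23 in H1975. In HCC2935 its fall was the smallest of the 4, at -0.27 ± 0.09. CYP51A1, the lanosterol demethylase, had changes from -1.16 in PC9 to -0.60 in HCC827. EBP read 90.4, 100.2 and 64.5 CPM in HCC2935 DMSO and 37.8, 30.5 and 38.5 in DTPs, and its changes ran from -1.31 in HCC827 to -0.84 in PC9. NSDHL, whose promoter stretch above held 4 CCAAT boxes, changed by -0.48 ± 0.14 in PC9, -1.20 ± 0.17 in HCC827, -0.93 ± 0.16 in H1975 and -0.89 ± 0.13 in HCC2935. MSMO1, with 3 boxes, fell in HCC827 (-1.24 ± 0.22) and HCC2935 (-0.70 ± 0.12) and had values of -0.63 in PC9 and -0.43 in H1975 that were not called. HSD17B7 read 15.1, 37.1 and 27.4 CPM in PC9 DMSO and 9.70, 9.99 and 8.86 in DTPs (-1.48 ± 0.27), with the groups apart as for 75.4% of all genes. DHCR7 fell in PC9 (-1.07 ± 0.23), HCC827 (-1.16 ± 0.16) and HCC2935 (-0.82 ± 0.14), and its H1975 value was -0.18. By edgeR, the call of SQLE in HCC2935 was lost when any of 5 of the 6 libraries was left out (adjusted p up to 0.103) and that of CYP51A1 in HCC827 without DMSO replicate 1 (adjusted p = 0.0512).

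TM7SF2, LSS and SC5D of the same branch had calls in the other direction. TM7SF2 was above DMSO in PC9 (1.45 ± 0.21), HCC827 (1.24 ± 0.34) and H1975 (1.84 ± 0.26), and was below it in HCC2935, where it read 36.0, 41.3 and 38.3 CPM in DMSO, 58.6, 48.6 and 54.4 in acute and 17.8, 20.7 and 15.7 in DTPs. In that line the gene rose under acute drug and fell in DTPs (-1.10 ± 0.13). LSS rose in H1975 (0.87 ± 0.15), from 63.8, 77.7 and 62.3 CPM to 127, 103 and 145, and fell in PC9 (-0.76 ± 0.22) and HCC827 (-0.65 ± 0.17). SC5D, the lathosterol desaturase, rose in HCC2935 from 47.1, 44.1 and 46.6 to 105, 105 and 95.4 CPM (1.14 ± 0.09) and in H1975 (0.38 ± 0.13), and fell in HCC827 (-0.59 ± 0.12). The changes of all 3 differed between lines (edgeR adjusted p = 8.27e-06, 0.000137 and 4.76e-05). By edgeR, the H1975 call of SC5D was lost when any 1 of the 6 libraries was left out (adjusted p up to 0.111), and in HCC827 that of TM7SF2 without DTP replicate 3 (adjusted p = 0.0541) and that of LSS without DMSO replicate 1 (adjusted p = 0.0557). In all, 19 of the 31 genes differed between lines in this change, near the 61.6% of all genes tested, and 9 to 17 when 1 replicate number was left out.

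Among the fatty acid genes SCD had the largest fall in PC9, HCC827 and HCC2935. It read 2172, 1470.3 and 1653 CPM in HCC827 DMSO and 188, 298 and 296 in DTPs, 6.63-fold lower, and was the lowest call of the 31 in HCC827 and PC9. Its changes were -2.94 ± 0.47 in PC9, -2.73 ± 0.22 in HCC827 and -2.05 ± 0.14 in HCC2935. In H1975 it read 899.8, 255 and 700.5 in DMSO and 331, 503 and 393 in DTPs, groups that overlapped through DMSO replicate 2 (-0.61, not called, edgeR adjusted p = 0.226). FASN fell in every line, with changes of -1.61 ± 0.12 in PC9, -1.24 ± 0.20 in HCC827, -0.76 ± 0.16 in H1975 and -1.24 ± 0.14 in HCC2935. ELOVL6 fell in PC9 (-1.78 ± 0.20), HCC827 (-1.84 ± 0.18) and H1975 (-1.03 ± 0.28), while its HCC2935 value of -0.79 was not called. The H1975 call was lost without DTP replicate 1 (adjusted p = 0.0688) by edgeR. ACACA, which makes malonyl-CoA, fell in PC9 (-0.89 ± 0.11), HCC827 (-0.70 ± 0.14) and HCC2935 (-0.86 ± 0.12), and its H1975 value was 0.11. ACLY fell in PC9 (-1.03 ± 0.08), H1975 (-0.37 ± 0.11) and HCC2935 (-0.46 ± 0.09), and its H1975 call was lost when any of 4 of the 6 libraries was left out (adjusted p up to 0.0996) by edgeR. The desaturases of polyunsaturated fatty acids did not move with SCD in PC9 and HCC827. FADS1, the delta-5 desaturase, fell in HCC2935 only (-1.11 ± 0.12), and FADS2 rose in PC9 from 44.9, 60.4 and 50.7 to 82.1, 79.9 and 81.9 CPM (0.65 ± 0.11) and fell in HCC2935 (-0.80 ± 0.09). The sterol carrier STARD4 fell in HCC827 (-1.68 ± 0.22) and in PC9 (-1.39 ± 0.50), where the call was lost when any of 4 of the 6 libraries was left out (adjusted p up to 0.117) by edgeR. FADS1 and FADS2 lie in opposite directions on chromosome 11 and their spans overlap in GENCODE 29, and in all 18 of the 31 genes overlap a gene on the other strand. Whether strand was used in counting is not given in the sources used here.

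**Figure D4:**
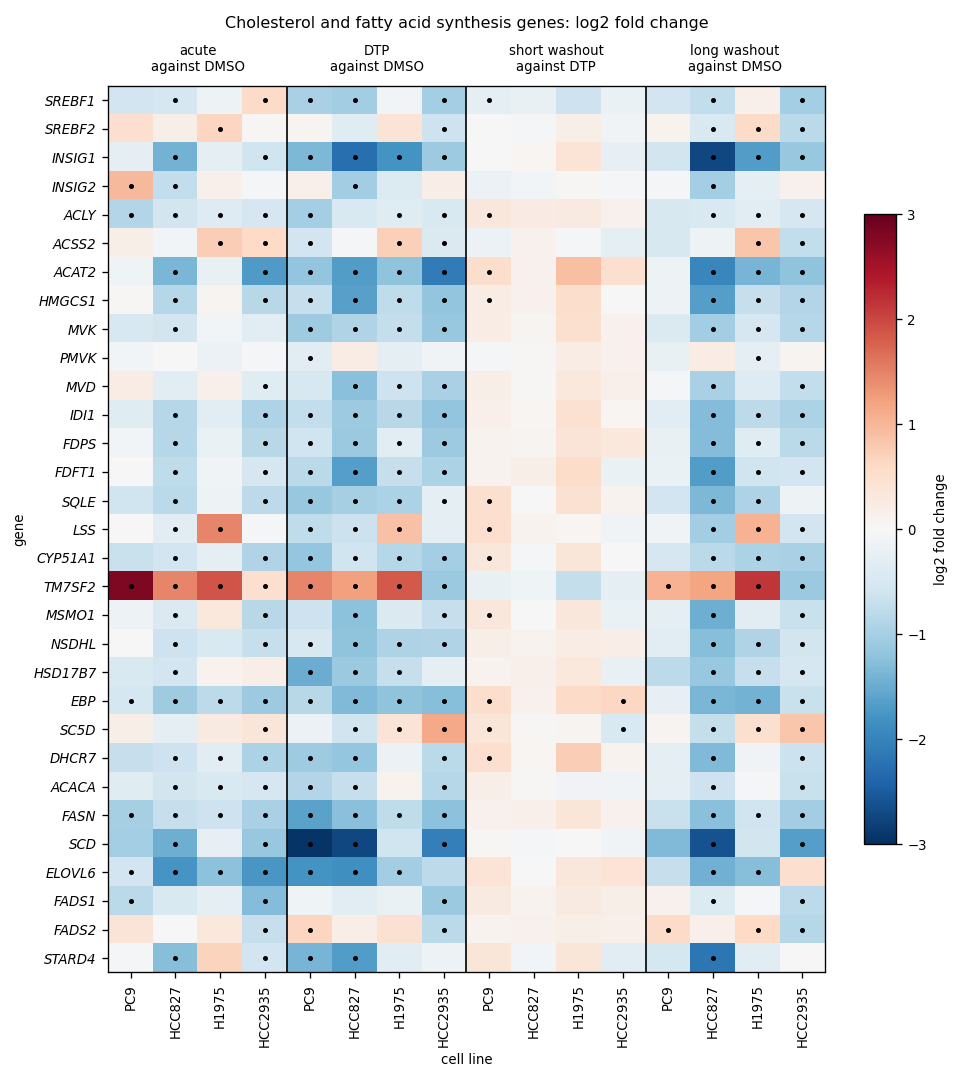
Log2 fold changes of the 31 genes (rows, grouped from regulators to sterol transport) in 4 comparisons in each line (columns), from blue (lower) to red (higher), with a dot where edgeR's adjusted p was under 0.05. DTPs hold 20 to 25 dots per line, most of them blue, while short washout holds 11 in PC9, 2 in HCC2935 and none in HCC827 and H1975.

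Between acute drug and DTPs, more of the 31 genes fell than rose in each line, while most proliferation genes rose in HCC827 only. Against acute, 18 of the 31 fell and 1 rose in PC9 DTPs, beside 20.6% and 19.2% of all genes. In HCC827, 12 fell and none rose, beside 13.8% and 15.7%. In H1975, 15 fell and 1 rose, beside 14.9% and 11.2%, and in HCC2935 10 fell and 3 rose, beside 20.4% and 22.0%. HMGCS1, MVD (the decarboxylase that makes isopentenyl diphosphate), FDFT1 and HSD17B7 (a sterol ketoreductase) fell in all 4 lines. INSIG1 fell in H1975, from 50.6, 83.8 and 87.8 CPM in acute to 23.2, 30.7 and 22.8 in DTPs (-1.56 ± 0.22), and in PC9 (-1.04 ± 0.28). Over the same contrast, 11 of 12 proliferation genes rose in HCC827, 4 rose in HCC2935, 1 rose in H1975, and 4 rose and 1 fell in PC9. The shares of all genes that rose were 15.7%, 22.0%, 11.2% and 19.2% in that order, so the H1975 count is no higher than its share. SQLE went the other way in HCC2935 and rose from 32.3, 37.3 and 26.9 to 44.8, 48.8 and 44.5 CPM (0.51 ± 0.13), as did SC5D there (0.76 ± 0.10) and FADS1 in PC9 (0.69 ± 0.18). The counts depended on single libraries. In PC9, 9 to 11 genes were called without any 1 of the DTP libraries, beside 31.1% to 33.3% of all genes. In HCC827, 5 or 6 were called without acute replicate 1 or 2, beside 16.2% and 17.0% of all genes. In H1975, 10 were called without DTP replicate 1 and 5 without acute replicate 2, beside 17.0% and 11.7%. By edgeR, the call of HMGCS1 was lost when any of 5 of the 6 libraries was left out (adjusted p up to 0.105) in HCC2935 and when any of 3 of the 6 libraries was left out (adjusted p up to 0.0712) in PC9, and that of INSIG1 in PC9 without DTP replicate 1 or DTP replicate 3 (adjusted p up to 0.0585). The calls of FDFT1 and HSD17B7 in HCC2935 were lost when any of 4 of the 6 libraries was left out (adjusted p up to 0.103) and when any of 3 of the 6 libraries was left out (adjusted p up to 0.0638), that of FADS1 in PC9 without acute replicate 1 or DTP replicate 1 (adjusted p up to 0.0631), that of MVD in PC9 when any of 3 of the 6 libraries was left out (adjusted p up to 0.087), and that of FDFT1 in H1975 when any of 4 of the 6 libraries was left out (adjusted p up to 0.1). By edgeR, HSD17B7 also lost its call without acute replicate 1 or acute replicate 2 (adjusted p up to 0.0591) in HCC827 and without acute replicate 2 (adjusted p = 0.0584) in H1975.

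**Figure D5:**
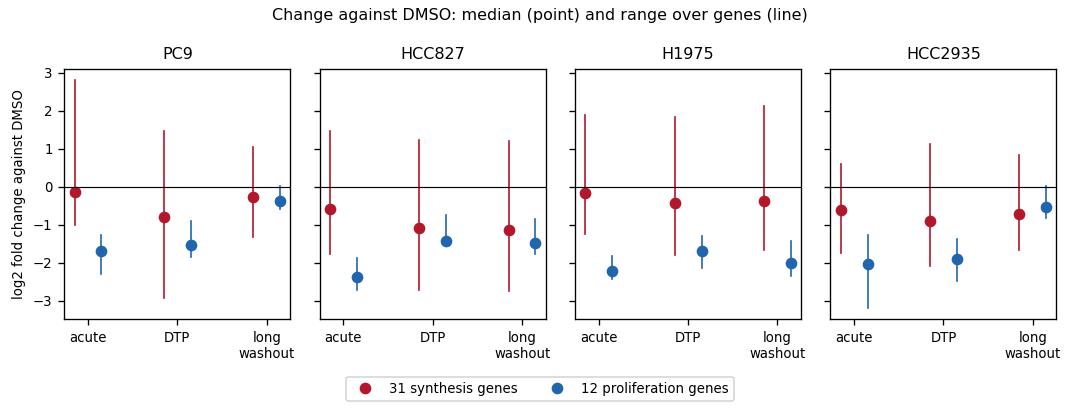
Log2 fold change against DMSO in acute, DTP and long washout libraries of each line, as the median (point) and the lowest to highest gene (vertical line) of the 31 synthesis genes (red) and of 12 proliferation genes (blue). In HCC827 the median of the synthesis genes goes from -0.58 to -1.09 between acute and DTP while that of the proliferation genes goes from -2.38 to -1.43.

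Removing the drug for 24 h raised part of the list in PC9. There 10 of the 31 genes rose against DTPs and 1 fell, beside 12.1% and 10.1% of all genes. 7 of the 10 were on the way from squalene to cholesterol, the largest part of the list, and the steps were small. EBP changed by 0.53 ± 0.11, ACAT2 by 0.52 ± 0.11, LSS by 0.50 ± 0.07, DHCR7 by 0.49 ± 0.08 and SQLE by 0.47 ± 0.07. SQLE read 69.8, 62.2 and 62.5 CPM in DTPs and 92.8, 95.3 and 83.5 after the short washout, with the groups apart as for 40.9% of all genes. It remained under its 2 higher DMSO libraries (78.5, 190.3 and 159). None of ACACA, FASN, SCD, ELOVL6, FADS1 and FADS2 was called, with FASN at 0.14 and SCD at 0.04. ACLY, which makes the acetyl-CoA that both pathways use, rose (0.35 ± 0.06), and SREBF1 fell by 0.28 on the log2 scale. The count was 7 without short washout replicate 1, 2 or 3 or without DTP replicate 3, beside 12.1% to 16.1% of all genes. It was 0 where the spread was estimated from all 15 PC9 libraries, beside 5.92%. The call of SREBF1 was lost when any of 4 of the 6 libraries was left out (adjusted p up to 0.0585) by edgeR. By the same test that of SC5D was lost without any 1 of the 6 (up to 0.141) and that of MSMO1 without any of 5 (up to 0.127). HMGCS1 lost its call without any of 4 (edgeR adjusted p up to 0.0751), and CYP51A1 without short washout replicate 2 (0.0556).

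In the other lines less passed the test. In H1975 edgeR called none of the 31 genes and 0.0% of all genes. There 19 of the 31 had an unadjusted p under 0.05, and DESeq2 called 9, beside 2.72% of all genes. The share of all genes at an unadjusted p under 0.05 was not counted, here or in the comparisons below. Libraries with the same replicate number deviated together here (r = 0.240, 0.570 and 0.508 for the 3 pairs), and with the replicate number as a block 17 genes were called, 15 higher and 2 lower, beside 11.6% of all genes. ACAT2 read 15.6, 18.1 and 10.8 CPM in H1975 DTPs and 31.6, 27.9 and 23.9 after the short washout, a value of 0.91 with an edgeR adjusted p of 0.193 without the block and 0.00121 with it. DHCR7, FDFT1, HMGCS1 and SQLE also had values above 0 and groups apart, from 0.45 for SQLE to 0.74 for DHCR7. Groups were apart for 19.0% of all genes. SREBF1 and TM7SF2 were the 2 lower calls under the block, at -0.61 and -0.72. Without DTP replicate 2, 6 genes were called without the block, beside 1.85% of all genes. In HCC2935, EBP rose (0.63 ± 0.11) and SC5D fell (-0.45 ± 0.09), beside 2.47% and 1.04% of all genes. Neither call held without any 1 of the 3 short washout libraries, and 1 call was left without DTP replicate 2. In HCC827 edgeR and DESeq2 called none of the 31, none had an unadjusted p under 0.05, and 0.0% of all genes were called. There too the replicate numbers paired the libraries (r = 0.690, 0.399 and 0.511), and the block called 0 of the 31 and 2 genes in all. The edgeR test between lines called none of the 31 for the step from DTP to short washout, beside 0.0248% of all genes tested, with 7 of the 31 at an unadjusted p under 0.05 and 1 called by DESeq2.

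After the long washout more of the genes were below DMSO than above it in 3 lines. Against DMSO, 27 fell and 1 rose in HCC827 after 4 days without drug, beside 19.9% and 19.7% of all genes. In HCC2935, after 10 days, 25 fell and 1 rose, beside 18.9% and 21.0%. In H1975, after 3 days, 16 fell and 6 rose, beside 28.2% and 26.8%. In PC9, after 7 days, none fell and 2 rose, beside 14.7% and 15.9%, and the 2 that rose were TM7SF2 (1.05 ± 0.28) and FADS2 (0.58 ± 0.13). By edgeR both calls were lost without DMSO replicate 1 or DMSO replicate 3. The washouts differ in length, so that the lines are set side by side and not matched in time.

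INSIG1 read 34.4, 45.4 and 29.4 CPM in HCC827 long washout, all below the DMSO libraries, where groups were apart for 52.8% of all genes. Its change of -2.74 ± 0.22 was the lowest call in this line. In H1975 and HCC2935 its changes were -1.67 ± 0.30 and -1.13 ± 0.11. SCD remained down in HCC827 (-2.61 ± 0.19) and HCC2935 (-1.66 ± 0.15), where it read 404, 331 and 264 CPM in DMSO and 102, 96.8 and 113 in long washout. HMGCS1 changed by -1.65 ± 0.22, -0.68 ± 0.18 and -0.89 ± 0.11 in HCC827, H1975 and HCC2935, and FASN by -1.25 ± 0.13, -0.60 ± 0.12 and -1.05 ± 0.14. The order of the lines was another for the proliferation genes. In HCC827 and H1975 12 of 12 fell, with medians of -1.48 and -2.02. In HCC2935 7 of 12 fell (-0.52) and in PC9 2 of 12 (-0.37), beside 18.9% and 14.7% of all genes. Their summed CPM was 863 to 1150 in H1975 long washout, 1662 to 2379 in H1975 short washout and 736 to 1674 in H1975 DTPs. In HCC827 it was 1088 to 1312 in long washout, 909 to 1861 in short washout and 871 to 1505 in DTPs. In those lines these genes did not show, in the long washout, the resumed growth by which that arm is described.

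In PC9 the long washout libraries were uneven, and the comparison depends on them. SCD read 104, 413 and 55.6 CPM in long washout, beside 147, 742 and 549 in DMSO and 63.4, 71.5 and 53.2 in DTPs, so that 1 library sits at the level of DMSO and 1 at that of DTPs. HMGCS1 read 197, 271 and 159, beside 149, 152 and 138 in DTPs, with the groups apart but no call (0.52, edgeR adjusted p = 0.0742). Groups were apart for 45.9% of all genes between PC9 long washout and DTPs. Without long washout replicate 2, 9 genes were called against DMSO, 7 of them lower, and without DMSO replicate 3 none was. Those settings called 37.4% and 9.58% of all genes. Against DTPs, a comparison added after the data were seen, ACLY, ACAT2, FDFT1 and CYP51A1 rose, led by ACAT2 at 1.03 ± 0.25, and none fell, beside 11.8% and 5.47% of all genes. That count was 20 without long washout replicate 3 and 0 without any other 1 of the 6 libraries, and DESeq2 called 14. The share of all genes called moved with it, from 17.3% to 46.3% without long washout replicate 3, to between 0.0% and 0.67% without any other library, and to 29.3% by DESeq2. Over the same contrast 12 of 12 proliferation genes rose in PC9 and 11 of 12 in HCC2935, beside 11.8% and 2.99% of all genes. In HCC2935 the share of all genes called went from 5.16% to 0.263% with the replicate block. With 1 library left out it ran from 0.116% to 12.5%. The counts of proliferation genes in those settings are not given. In the other 3 lines edgeR called none of the 31 between long washout and DTPs, with 0.0%, 0.0136% and 5.16% of all genes called in HCC827, H1975 and HCC2935. There 1, 0 and 8 of the 31 had an unadjusted p under 0.05, a share not counted over all genes. DESeq2 called 0, 0 and 3, beside 0.0498%, 0.49% and 11.8% of all genes.

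In long washout against DMSO, 21 of the 31 genes differed between lines, beside 52.4% of all genes, and 10 to 18 without 1 replicate number. SREBF2 rose in H1975 (0.57 ± 0.16) and fell in HCC827 (-0.47 ± 0.12) and HCC2935 (-0.81 ± 0.09). ACSS2, which makes acetyl-CoA from acetate, rose in H1975 (0.83 ± 0.18) and fell in HCC2935 (-0.73 ± 0.13). By edgeR, the call of SREBF2 was lost without long washout replicate 2 or long washout replicate 3 (adjusted p up to 0.0565) in H1975 and without DMSO replicate 1 or long washout replicate 1 (adjusted p up to 0.0643) in HCC827. In HCC2935 ACSS2 had read 112, 110.3 and 149 CPM in DMSO and 199.8, 176 and 195 in acute, and then 104, 84.2 and 88.1 in DTPs and 72.9, 68.2 and 80.1 in long washout. STARD4 fell in HCC827 (-2.16 ± 0.24), from 61.8, 37.8 and 42.0 to 11.9, 11.8 and 7.75 CPM, and its HCC2935 value was 0.01, with 57.9, 50.6 and 60.0 CPM in DMSO and 58.3, 54.3 and 54.6 in long washout. The 6 genes called in opposite directions between lines after the long washout were SREBF2, ACSS2, LSS, TM7SF2, SC5D and FADS2. LSS stood at 142, 144 and 142 CPM in H1975 long washout, all above its DMSO libraries (1.05 ± 0.09), and fell in HCC827 (-1.04 ± 0.14) and HCC2935 (-0.57 ± 0.10). In H1975 these 2 groups were apart for 63.1% of all genes. For the step from DTP to long washout, 3 of the 31 differed between lines, namely CYP51A1, SQLE and STARD4, beside 7.34% of all genes, and none did without the libraries of replicate 1 or of replicate 2.

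The neighbouring lipid genes, from lists of their own, had calls in both directions in DTPs. Their counts stand beside the shares of all genes called in DTPs against DMSO, which were 35.4% higher and 35.9% lower in PC9, 19.4% and 17.2% in HCC827, 22.4% and 23.4% in H1975, and 25.3% and 27.2% in HCC2935. With 3 to 11 genes to a list, nothing particular to a list is read from its counts. Of 3 genes that escort and cut SREBPs, MBTPS1, the site-1 protease, rose in PC9 (0.72 ± 0.06), H1975 (0.75 ± 0.09) and HCC2935 (0.66 ± 0.07), 2 fell in PC9, and none was called in HCC827. Of 11 other lipid synthesis genes, 3 rose and 5 fell in PC9, 2 rose and 2 fell in HCC827, 3 rose and 3 fell in H1975, and 5 rose and 3 fell in HCC2935. SCD5, the second human stearoyl-CoA desaturase gene, rose in all 4 lines while SCD fell in 3, with changes of 2.04 ± 0.07 in PC9, 1.89 ± 0.50 in HCC827, 2.57 ± 0.23 in H1975 and 1.68 ± 0.14 in HCC2935. SCD5 read 2.18, 2.59 and 4.31 CPM in HCC827 DMSO and 19.9, 7.22 and 5.92 in DTPs, with the groups apart as for 50.7% of all genes. LPIN1, a phosphatidate phosphatase, fell in PC9 (-2.19 ± 0.26), HCC827 (-1.34 ± 0.20) and HCC2935 (-1.53 ± 0.16).

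Of 9 genes of sterol and lipid uptake and storage, 5 rose and 4 fell in PC9, 2 rose and 2 fell in HCC827, 2 rose and 3 fell in H1975, and 3 rose and 3 fell in HCC2935. CD36, a fatty acid transporter, rose in each line from low levels. It read 0.155, 0.119 and 0.176 CPM in PC9 DMSO and 0.908, 0.755 and 1.13 in PC9 DTPs (2.62 ± 0.42), and 0.616, 0.279 and 0.139 and 1.55, 3.31 and 1.51 in HCC2935 (2.58 ± 0.59). Its lowest DMSO libraries in HCC827 and H1975 held about 1 count, so no fold is given there. Of 10 fatty acid oxidation genes, 5 rose and 3 fell in PC9, 3 rose and 1 fell in HCC827, 4 rose and 1 fell in H1975, and 3 rose and 2 fell in HCC2935. CPT1A, which brings fatty acids into mitochondria, rose in HCC827 (3.56 ± 0.29) and fell in H1975 (-2.49 ± 0.27). Of the genes of sterol efflux under LXR, 2 of 5 rose and 1 fell in PC9, none of 4 rose and 2 fell in HCC827, 1 of 5 rose and none fell in H1975, and 1 of 5 rose and 1 fell in HCC2935. There ABCA1, the cholesterol exporter, was the gene that rose (2.07 ± 0.33), and it fell after the short washout in HCC2935 (-1.67 ± 0.33) and PC9 (-1.50 ± 0.16). On the branches that use isoprenoids for prenylation and ubiquinone, 2 of 8 rose and 2 fell in PC9, 1 rose and 2 fell in HCC827, none rose and 1 fell in H1975, and 3 rose and 3 fell in HCC2935. PDSS1, which makes the ubiquinone side chain, was lower in each line, at -2.34 ± 0.15 in PC9, -0.97 ± 0.27 in HCC827, -1.13 ± 0.19 in H1975 and -1.52 ± 0.26 in HCC2935.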

How the data were processed

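RNA of 60 libraries was extracted on a Qiacube, made into Illumina TruSeq mRNA libraries and sequenced as paired ends on a HiSeq4000. The authors deposited estimated counts per gene, which were rounded here to whole numbers for the tests, and log2 TPM values with a pseudocount of 0.01, both for 19712 genes. The submitters' processing notes name HISAT2 2.1.0, Salmon 0.8.2 and build hg38 without their roles. The gene annotation and the use of strand are not given in the sources used here. A gene's reads can be shared with copies, and FDPS, CYP51A1, HSD17B7, SCD and FADS2 have named pseudogenes in GENCODE 29.

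Each comparison within a line was fitted on its 6 libraries with edgeR 4.0.16 (TMM, filterByExpr, quasi-likelihood F-test, Benjamini-Hochberg over all genes tested, threshold 0.05). Differences between lines were F-tests of 3 interaction terms over 24 libraries, and of the line over the 12 DMSO libraries. SEs are the size of the log2 fold change over the square root of F. The fits were first tested on simulated data. Alternatives were DESeq2 1.42.0, RLE size factors, no low-count filter, limma 3.58.1 on the deposited log2 TPM, the replicate number as a block, all 15 libraries of a line, and each library left out in turn. Long washout against DTP and the between-line tests of the long washout were added after the data were seen. R 4.3.3 and Python 3.11.15 were used.

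The 31 members and the other gene lists were chosen with earlier results of these data known. Any of the 31 could be named. Of the other lists, the called genes with the highest and the lowest change were named. Counts per library ran from 17.7 to 49.1 M, and all 60 pairs of replicates differed by more than counting error. The labels do not say that a replicate number marks a batch. Deviations from group means correlated over 0.1 in every same-numbered pair of short washout and DTP in HCC827 (0.690, 0.399 and 0.511) and in H1975 (0.240, 0.570 and 0.508), and of acute and DMSO in HCC2935 (0.184, 0.121 and 0.349). In the other 21 of 24 comparisons at least 1 pair did not reach 0.1.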

Additional observations from a re-analysis of the deposited data

Results flagged for a closer look

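Genes whose change differed between the 4 lines by edgeR's interaction test, and which were called in opposite directions in at least 2 lines, were singled out. The test between lines called 40.5%, 61.6% and 52.4% of all genes for acute, DTP and long washout against DMSO.

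Under acute drug these were INSIG2 (edgeR adjusted p = 0.000248), higher in PC9 (0.98) and lower in HCC827 (-0.73), and LSS (edgeR adjusted p = 0.000623), higher in H1975 (1.47) and lower in HCC827 (-0.33).

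In DTPs against DMSO, TM7SF2 had the smallest edgeR adjusted p, 8.27e-06, with 1.84 in H1975 and -1.10 in HCC2935. SC5D (edgeR adjusted p = 4.76e-05) stood at 1.14 in HCC2935 and -0.59 in HCC827. LSS (edgeR adjusted p = 0.000137) stood at 0.87 in H1975 and -0.76 in PC9. FADS2 (edgeR adjusted p = 0.000176) stood at 0.65 in PC9 and -0.80 in HCC2935. ACSS2 (edgeR adjusted p = 0.0117) rose in H1975 (0.72) and fell in PC9 (-0.56) and HCC2935 (-0.44). By edgeR, the ACSS2 calls were lost when any of 4 of the 6 libraries was left out (adjusted p up to 0.116) in PC9 and when any of 3 of the 6 libraries was left out (adjusted p up to 0.0844) in HCC2935.

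In long washout against DMSO the edgeR adjusted p was 2.38e-05 for TM7SF2, 5.38e-05 for LSS, 0.000247 for FADS2 and 0.000959 for SC5D. TM7SF2 was higher in H1975 (2.14) and lower in HCC2935 (-1.12), and LSS higher in H1975 (1.05) and lower in HCC827 (-1.04). FADS2 was higher in PC9 (0.58) and H1975 (0.61) and lower in HCC2935 (-0.87), and SC5D higher in HCC2935 (0.83) and lower in HCC827 (-0.72). By edgeR, the FADS2 call was lost when any of 5 of the 6 libraries was left out (adjusted p up to 0.156) in H1975 and without DMSO replicate 1 or DMSO replicate 3 (adjusted p up to 0.0714) in PC9. SREBF2 (edgeR adjusted p = 0.00316) and ACSS2 (edgeR adjusted p = 0.0109) were higher in H1975, at 0.57 and 0.83, and lower in HCC2935, at -0.81 and -0.73. The length of the long washout differs between the lines and cannot be told apart from the line.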

How the results depend on the processing

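Of 331 alternative values of the 30 counts of called genes, 60 differed by more than 1.5 times from the reported count, and the cause was not tested. Of 8959 alternative values for single genes, 0 reversed a called direction, and with 1 library, or the 2 H1975 libraries below, left out 275 of 4495 lost a call. Both totals include genes that were not called and had no call to lose, so the share of calls lost is higher. DESeq2 called 5 of the 31 genes in PC9 long washout against DMSO, 14 in PC9 long washout against DTP, 9 in H1975 short washout against DTP, 3 in HCC2935 long washout against DTP, 1 between lines for the short washout and 8 between lines for long washout against DTP. Its shares of all genes within lines were 37.3%, 29.3%, 2.72% and 11.8%, in that order. RLE size factors gave 2 in PC9 long washout against DTP, beside 16.4% of all genes, and 1 between lines for that step. With the spread from all 15 libraries of a line, 11 were called in PC9 DTP against acute, 0 in PC9 short washout, 5 and 7 in PC9 long washout against DMSO and against DTP, 0 in HCC2935 short washout and 3 in HCC2935 long washout against DTP. The shares of all genes there were 33.9%, 5.92%, 44.9%, 37.2%, 3.14% and 11.8%, in that order. limma on log2 TPM called 9 in PC9 DTP against acute and 1 in PC9 long washout against DTP, beside 49.7% and 12.3% of all genes. Without the low-count filter, 1 was called in HCC2935 long washout against DTP, beside 4.96% of all genes. Without H1975 DMSO replicate 2 and acute replicate 1, 16 were called in H1975 acute.

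With the replicate block, 13 genes were called in PC9 acute (4 higher, 9 lower), 17 in H1975 short washout and 1 in HCC2935 long washout against DTP, and no other count under the block moved by over 1.5 times. The shares of all genes called with the block were 67.1%, 11.6% and 0.263%, in that order. Where the numbers paired the libraries of HCC2935 acute and DMSO, the block called 26, beside 53.2% of all genes.

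Leaving out 1 library at a time gave 5 to 14 genes in PC9 acute, 9 to 25 in PC9 DTP against acute, 7 to 11 in PC9 short washout, 0 to 9 and 0 to 20 in PC9 long washout against DMSO and against DTP, 5 to 14 in HCC827 DTP against acute, 6 to 14 in H1975 acute, 13 to 23 in H1975 DTP, 5 to 18 in H1975 DTP against acute, 0 to 6 in H1975 short washout, 0 to 3 in HCC2935 short washout and 0 to 3 in HCC2935 long washout against DTP. The PC9 shares of all genes, in that order, were 62.8% to 64.3%, 31.1% to 35.5%, 12.1% to 18.0%, 9.58% to 37.4% and 0.0% to 46.3%. Those of HCC827 were 16.2% to 36.5%. In H1975 they were 32.4% to 41.8%, 32.8% to 46.8%, 11.7% to 30.6% and 0.0% to 1.85%. In HCC2935 they were 0.522% to 4.66% and 0.116% to 12.5%. Between lines, leaving out 1 replicate number gave 5 to 7 for acute, 9 to 17 for DTP and 10 to 18 for long washout against DMSO, and 0 to 2 for long washout against DTP. The shares of all genes under the alternatives to the between-line tests are not given here, so these moves cannot be read as particular to the 31 genes. In HCC827 and HCC2935 every count with 1 library left out, for acute, DTP and long washout against DMSO, stayed at 19 or more of the 31. The shares of all genes in those settings ran from 26.6% to 49.5%. The lowest count of any of the 31 genes in a library was 35.1. Averaged over all genes with at least 20 counts, all 60 pairs of replicates differed by more than counting error. Whether depth or the spread between libraries limited the precision for the 31 genes was not tested.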
